A study of Homo sapiens with 12 samples.

Results

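The regions described here are those of 3 chromosome intervals whose copy number is often increased in osteosarcoma, a malignant tumour of bone. The intervals run from 34.0 to 57.0 Mb on chromosome 6, from 117.7 to 141.0 Mb on chromosome 8 and from 10.7 to 22.2 Mb on chromosome 17 of the genome build hg19. A region belonged to an interval when its midpoint lay inside it. Of the 169273 regions in the 6 lists of the series, 3822 were members, among them 407 of the 18856 regions of DNA synthesis. The borders came from outside the data, and the copy number of these intervals was not analysed here.

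The study mapped newly made DNA by BrdU-Seq and the histone mark H3K18ac by ChIP-Seq, to relate DNA replication to epigenetic marks. BrdU-Seq was done in Saos-2, an osteosarcoma cell line, in H1, a line of human embryonic stem cells, and in IMR90, a line of primary lung fibroblasts. Each of the 6 groups that have a region list had 1 library, and the 6 input libraries were not analysed here. Saos-2 and IMR90 cells received no siRNA. The H1 knockdown culture received siRNA against EP300 and CREBBP, and the H1 control culture received non-targeting siRNA. Both H1 BrdU cultures also had HA 1077 in the medium at 10 µM and were collected 72 h after transfection. In a comparison of H1 BrdU with Saos-2 or IMR90, the cell line and these treatments therefore cannot be told apart. The labels give no siRNA for the H1 and IMR90 cells used for H3K18ac, and H3K18ac in Saos-2 was not analysed here. H1 cells were at passage 35 to 45 and IMR90 cells at passage 7 to 12.

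BrdU is a thymidine analogue that cells build into DNA during synthesis, so an antibody against it pulls down DNA made in the labelling period. H3K18ac is an acetylated form of histone H3 found at active promoters and enhancers, and EP300 and CREBBP are acetyltransferases that place it. Osteosarcoma genomes are strongly rearranged, and gains of the short arms of chromosomes 6 and 17 and of the long arm of chromosome 8 recur in them. The chromosome 6 gain is best known for RUNX2, the transcription factor that directs osteoblast formation, and the chromosome 17 gain for COPS3, a subunit of the COP9 signalosome. No gene was placed among the regions, because the files use hg19 and the annotation at hand another build.

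Saos-2 did not carry more BrdU regions in all 3 intervals. Its share was high in the chromosome 8 interval, low in the chromosome 6 interval and near the other lines in the chromosome 17 interval. In the 3 intervals together the Saos-2 list had 146 regions, the H1 knockdown list 36, the H1 control list 119 and the IMR90 list 106. These were 18.2% of the Saos-2 regions on chromosomes 6, 8 and 17 (95% Wilson interval 15.7% to 21.0%, n = 802), 17.2% of the H1 knockdown regions (12.7% to 22.9%, n = 209), 17.4% of the H1 control regions (14.8% to 20.5%, n = 682) and 14.3% of the IMR90 regions (12.0% to 17.1%, n = 739). These Wilson intervals overlapped one another, with the share of IMR90 the lowest. All confidence intervals given here cover the counting error of regions alone. They do not cover the spread between libraries, which 1 library in each group cannot show, and neighbouring regions are not independent.

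On chromosome 8, 69 of 255 Saos-2 regions lay in the interval, or 27.1% (22.0% to 32.8%). The interval held 12 of 69 H1 knockdown regions, or 17.4% (10.2% to 28.0%), 39 of 223 H1 control regions, or 17.5% (13.1% to 23.0%), and 34 of 231 IMR90 regions, or 14.7% (10.7% to 19.9%). Saos-2 thus had the highest share of the 4 lists. Its Wilson interval did not overlap that of IMR90, but it overlapped those of H1 control and the H1 knockdown. Per Mb, counted over 500 kb bins that held a region of any list, Saos-2 had 3.00 regions inside the interval and 1.58 in the rest of the chromosome. H1 control had 1.70 inside and 1.56 in the rest, and IMR90 had 1.48 inside and 1.67 in the rest.

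On chromosome 6 the order was turned round. The interval held 51 of 278 Saos-2 regions, or 18.3% (14.2% to 23.3%), and 20 of 83 H1 knockdown regions, or 24.1% (16.2% to 34.3%). It held 61 of 253 H1 control regions, or 24.1% (19.3% to 29.7%), and 51 of 178 IMR90 regions, or 28.7% (22.5% to 35.7%). All 4 lists were denser inside this interval than in the rest of the chromosome, with 2.22 against 1.62 regions per Mb in Saos-2, 2.65 against 1.37 in H1 control and 2.22 against 0.904 in IMR90. Saos-2 and IMR90 had the same number of regions inside, and the rest of the chromosome held 227 in Saos-2 and 127 in IMR90.

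The chromosome 17 interval was sparser than the rest of its chromosome in every BrdU list. It held 26 of 269 Saos-2 regions, or 9.67% (6.68% to 13.8%), and 4 of 57 H1 knockdown regions, or 7.02% (2.76% to 16.7%). It held 19 of 206 H1 control regions, or 9.22% (5.98% to 14.0%), and 21 of 330 IMR90 regions, or 6.36% (4.20% to 9.53%). These 4 Wilson intervals overlapped one another. Per Mb, Saos-2 had 2.26 regions inside and 3.60 in the rest, H1 control 1.65 inside and 2.77 in the rest, and IMR90 1.83 inside and 4.58 in the rest.

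**Figure D1:**
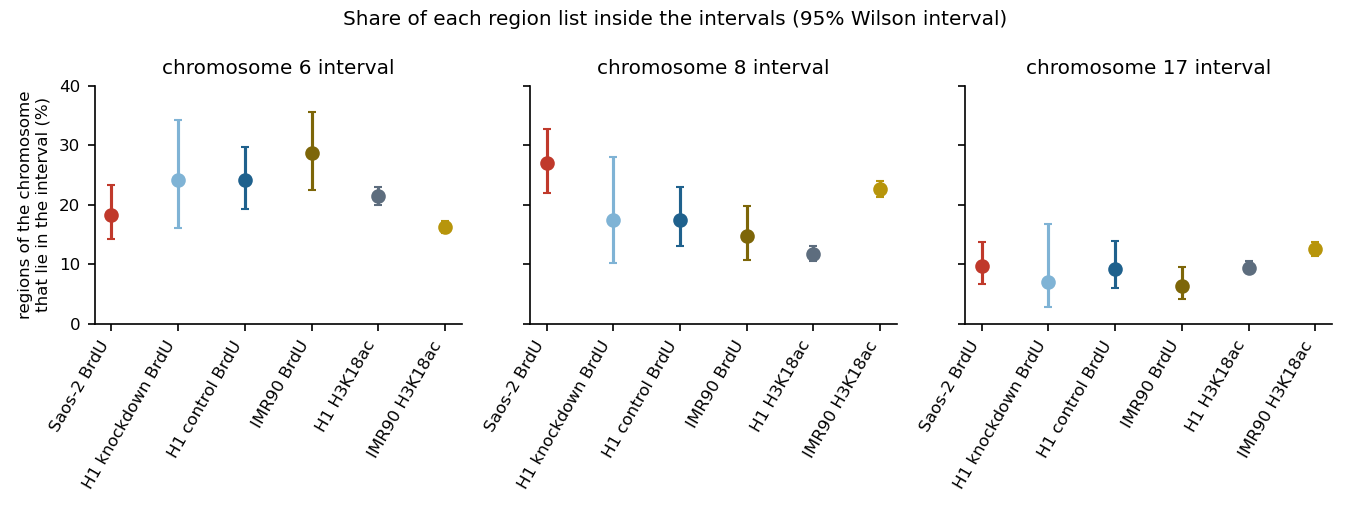
Percent of the regions of each chromosome that lie in the interval, for the 6 region lists (1 library each), with 95% Wilson intervals as bars. Saos-2 is the highest BrdU list in the chromosome 8 interval at 27.1% and the lowest in the chromosome 6 interval at 18.3%.

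To set 2 lists beside each other without their different lengths, the number of regions inside an interval over the number in the rest of its chromosome was divided between the lists, which gives an in-over-rest ratio. For chromosome 8 the ratio of Saos-2 over H1 control was 1.75 (95% confidence interval 1.12 to 2.72) and that of Saos-2 over IMR90 was 2.15 (1.36 to 3.39). Both confidence intervals lay above 1. H1 control over IMR90 gave 1.23 (0.743 to 2.03), and its confidence interval held 1. Among 85 autosomal tiles of 23 Mb, 11.8% reached a ratio of at least 1.5 for Saos-2 over H1 control, and among 83 tiles 15.7% did so for Saos-2 over IMR90. The tile from 115 to 138 Mb of chromosome 8, most of which lies in the interval, was among these tiles. Its ratio over H1 control was 2.14, second to 2.19 in the tile from 92 to 115 Mb of chromosome 1, and its ratio over IMR90 of 2.66 was the highest of the 83 tiles, ahead of 2.24 in the tile from 92 to 115 Mb of chromosome 9.

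For chromosome 6 the ratio was 0.707 (0.465 to 1.07) for Saos-2 over H1 control and 0.559 (0.359 to 0.873) for Saos-2 over IMR90. The confidence interval over IMR90 lay below 1, and that over H1 control reached past it. Ratios of at most 1 over 1.5 were common in the 23 Mb tiles, at 29.4% for Saos-2 over H1 control and 28.9% for Saos-2 over IMR90. The median tile had a ratio of 0.822 over H1 control and 0.891 over IMR90, so the typical tile also lay below 1.

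For chromosome 17 the ratio was 1.05 (0.566 to 1.96) for Saos-2 over H1 control and 1.57 (0.865 to 2.87) for Saos-2 over IMR90. Of 110 tiles of 11.5 Mb, 20.9% had a ratio of at least 1.5 for Saos-2 over IMR90. This interval held the fewest regions, and its ratio over IMR90 was 0.880 (0.423 to 1.83) once the borders were moved inward by 1 Mb. Without the tile from 17 to 18 Mb, which held 2 Saos-2 regions and 9 IMR90 regions, it was 2.54 (1.25 to 5.19).

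In the 3 intervals together, which pool ratios above and below 1, the ratio was 1.05 (0.806 to 1.38) for Saos-2 over H1 control and 1.33 (1.01 to 1.75) for Saos-2 over IMR90. Without the chromosome 8 interval these fell to 0.776 (0.552 to 1.09) and 0.992 (0.701 to 1.40). Without the chromosome 6 interval they were 1.42 (0.993 to 2.02) over H1 control and 2.04 (1.43 to 2.91) over IMR90. When each interval was first compared within its own chromosome and then combined by the Mantel-Haenszel method, the ratios were 1.08 over H1 control and 1.18 over IMR90. No confidence interval was computed for the combined ratios. The pooled ratios above also take in how each list divides among the 3 chromosomes.

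**Figure D2:**
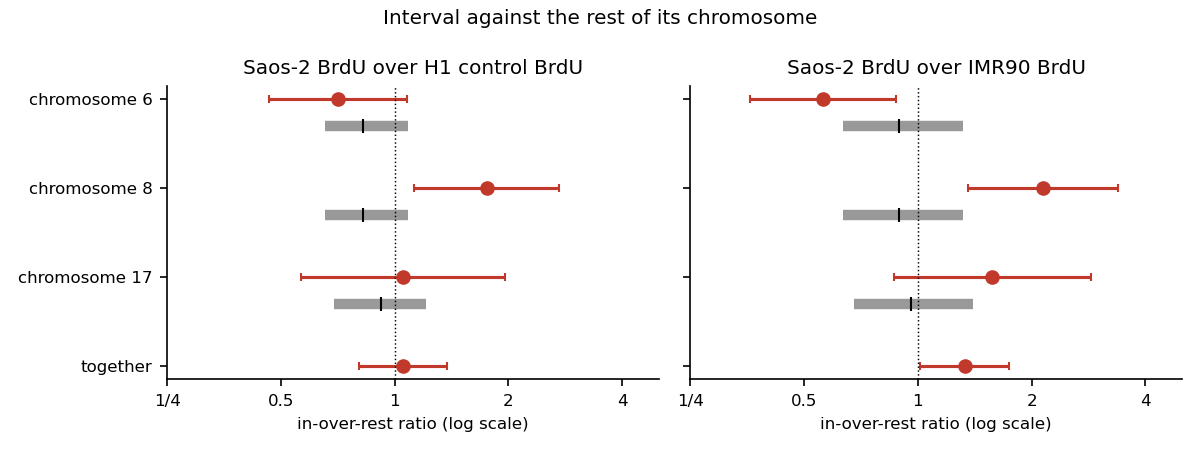
In-over-rest ratio of Saos-2 over H1 control and of Saos-2 over IMR90 on a log scale, for each interval and together, with 95% counting intervals (red). Grey bars give the middle quartiles and black ticks the median of autosomal tiles of like length; the chromosome 8 ratios of 1.75 and 2.15 lie right of the grey bars, and the chromosome 6 ratio over IMR90 of 0.559 lies left of them.

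The chromosome 8 result depended on which arm served as the base. In Saos-2 the short arm of chromosome 8 held 41 regions and the long arm outside the interval 145, and the H1 knockdown list had 25 on the short arm and 32 on the long arm. H1 control had 93 on the short arm and 91 on the long arm outside the interval, and IMR90 had 73 and 124. Per region of the chromosome, Saos-2 was thus the sparsest of these lists on the short arm. Set against the rest of the long arm alone, the ratio over H1 control fell to 1.11 (0.693 to 1.78), and that over IMR90 was 1.74 (1.08 to 2.79). Set against the short arm alone, it was 4.01 (2.34 to 6.87) over H1 control and 3.61 (2.06 to 6.33) over IMR90. Against all other autosomes it was 1.45 (0.975 to 2.15) over H1 control and 1.92 (1.27 to 2.90) over IMR90. The confidence interval over H1 control also held 1 in the upper 50% of each list by score, at 1.39 (0.758 to 2.56). It did so too for regions of 200 bp and longer, at 1.54 (0.787 to 3.03). Over IMR90 it held 1 in the lower 50% by score, at 1.64 (0.874 to 3.07). Much of the long arm outside the interval came from its far end: the 5 Mb tile from 140 to 145 Mb, whose first 1 Mb is in the interval, held 95 Saos-2, 41 H1 control and 85 IMR90 regions.

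The choice of arm moved the ratios of chromosomes 6 and 17 less. On chromosome 6 the ratio over IMR90 was 0.535 (0.315 to 0.907) against the rest of the short arm and 0.574 (0.357 to 0.923) against the long arm. On chromosome 17 the ratio over H1 control was 1.04 (0.487 to 2.24) against the short arm and 1.05 (0.563 to 1.97) against the long arm. Over IMR90 it was 2.02 (1.00 to 4.08) against the short arm and 1.49 (0.815 to 2.73) against the long arm. Against all other autosomes, the chromosome 6 ratio was 0.683 (0.470 to 0.993) over H1 control and 0.947 (0.642 to 1.40) over IMR90. With that base the confidence interval over H1 control lay below 1 and that over IMR90 held 1.

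**Figure D3:**
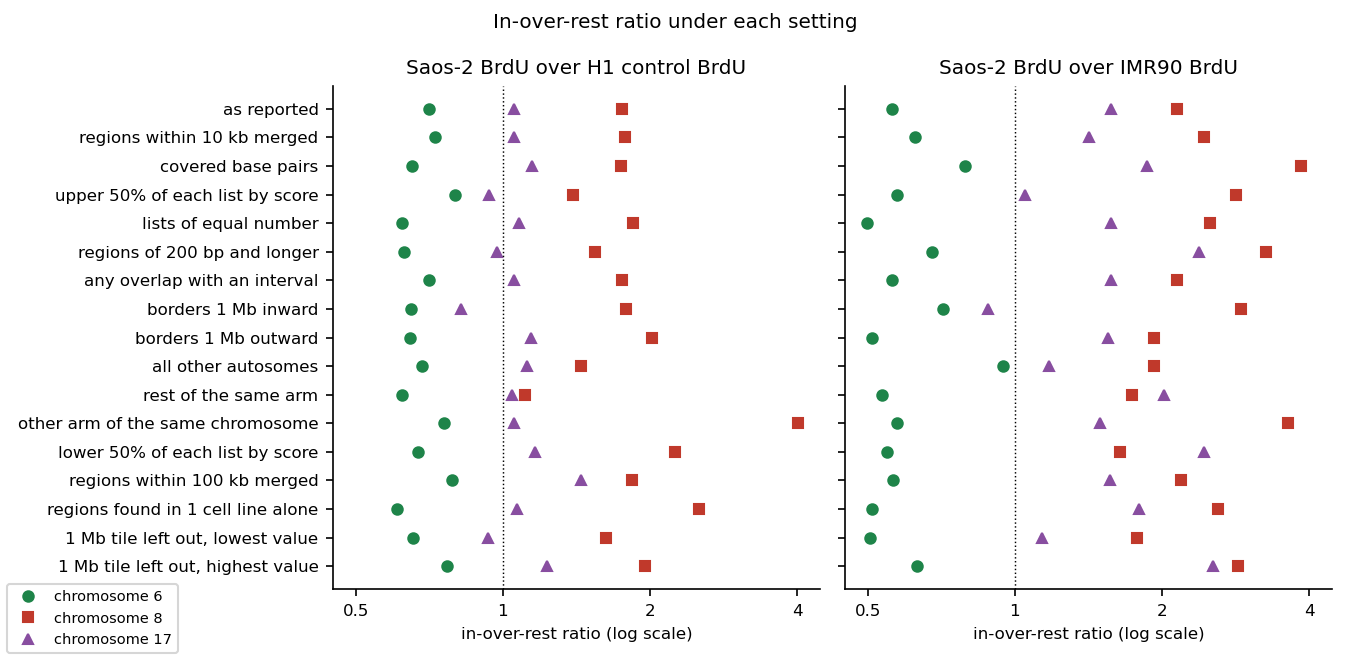
In-over-rest ratio of Saos-2 over H1 control and over IMR90 (log scale) for each interval as reported and under each alternative way of counting. The chromosome 8 ratios stay above 1, from 1.11 to 4.01 over H1 control and from 1.64 to 3.84 over IMR90, and the chromosome 6 ratios stay below 1.

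Within the intervals the regions lay in a few places. In the chromosome 6 interval, 46 of 51 Saos-2 regions, 17 of 20 H1 knockdown regions, 53 of 61 H1 control regions and 46 of 51 IMR90 regions lay before 45.5 Mb, the middle of the interval. The densest 1 Mb tile was the same in Saos-2 and H1 control, from 43 to 44 Mb, with 9 Saos-2 regions, 13 H1 control regions and 5 IMR90 regions. The densest IMR90 tile was that from 34 to 35 Mb, with 6 Saos-2, 3 H1 control and 11 IMR90 regions. No BrdU list had a region from 48 to 50 Mb, and Saos-2 had none from 53 to 57 Mb.

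The chromosome 8 interval was loaded towards its distal end. Saos-2 had 16 regions before and 53 after the middle of the interval at 129.35 Mb, the H1 knockdown list 5 and 7, H1 control 16 and 23, and IMR90 14 and 20. The numbers before the middle were thus alike in Saos-2, H1 control and IMR90, and the surplus of Saos-2 lay after it. Between 133 and 137 Mb the 4 tiles held 9, 8, 4 and 4 Saos-2 regions, against 4, 2, 1 and 0 H1 control regions and 2, 3, 1 and 1 IMR90 regions. The tile from 139 to 140 Mb was the densest of Saos-2 and of H1 control, with 12 and 8 regions, and held no IMR90 region, while the next tile held 7 Saos-2, 3 H1 control and 11 IMR90 regions.

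Leaving out the tile from 139 to 140 Mb gave the lowest ratio over IMR90 of any single tile, 1.78 (1.11 to 2.84). Leaving out that from 140 to 141 Mb gave the highest, 2.86 (1.70 to 4.80). Over H1 control the ratio stayed between 1.62 and 1.95 whichever tile of the interval was left out. No single tile of the interval therefore carried the chromosome 8 ratio. Tiles in the rest of the chromosome were not left out, and the ratio over H1 control depended on the arm used as base, as given above.

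In the chromosome 17 interval, 18 of 26 Saos-2 regions, 12 of 19 H1 control regions and 15 of 21 IMR90 regions lay past its middle at 16.45 Mb. The tile from 21 to 22 Mb, next to the centromere, was the densest of Saos-2 and H1 control, with 9 and 5 regions, and held 2 IMR90 regions. The densest IMR90 tile, from 17 to 18 Mb, had 2 Saos-2, 4 H1 control and 9 IMR90 regions.

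**Figure D4:**
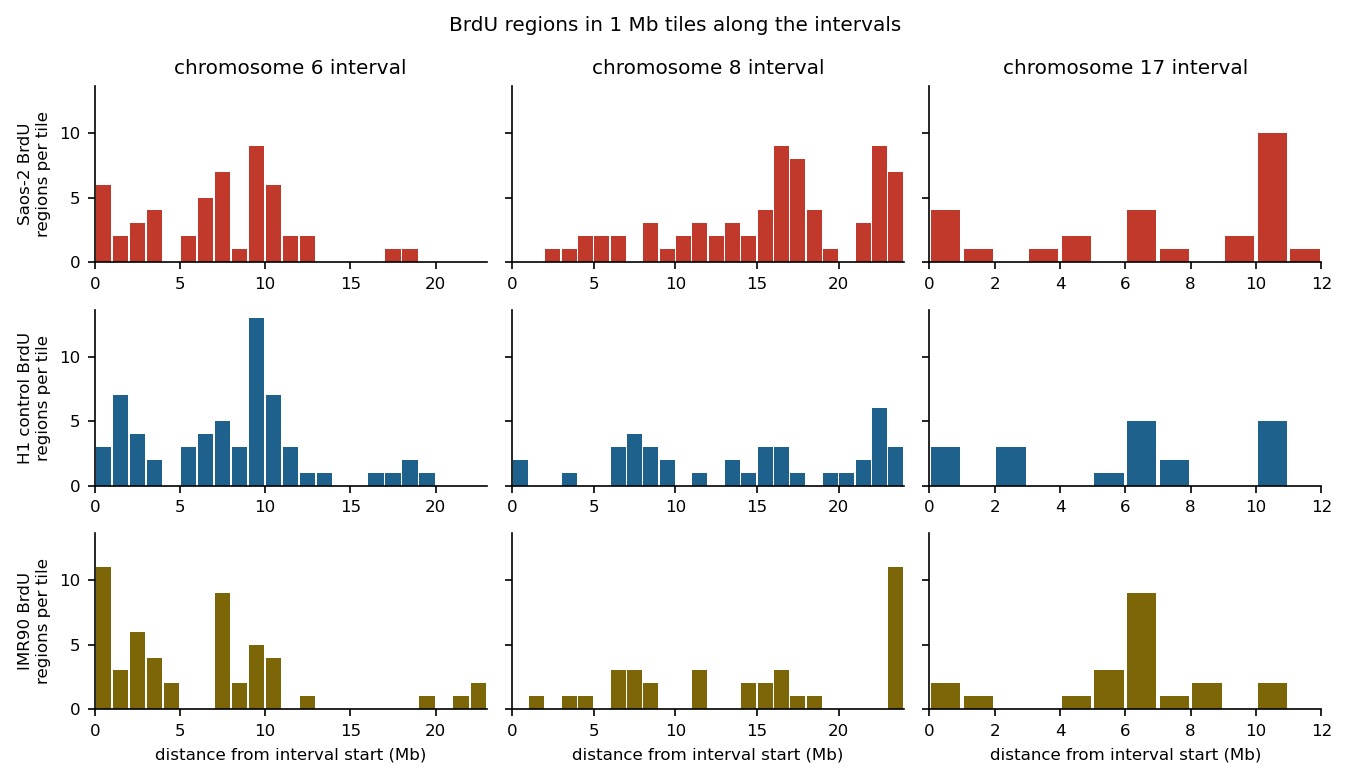
Number of BrdU regions in 1 Mb tiles by distance from the start of each interval, for Saos-2 (top), H1 control (middle) and IMR90 (bottom), 1 library each; the last tile of the chromosome 8 and 17 intervals is shorter than 1 Mb. Regions crowd into the first part of the chromosome 6 interval in each line, and the extra Saos-2 regions of chromosome 8 lie past the middle of its interval.

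The member regions were short. The median length inside the intervals was 200 bp in Saos-2 and 100 bp, a single window, in the H1 knockdown, H1 control and IMR90. In the chromosome 8 interval the mean Saos-2 length was 403 bp, against 311 bp in the rest of that chromosome, and the mean H1 control length 254 bp, against 196 bp. IMR90 regions ran the other way there, at 153 bp inside and 211 bp in the rest. Together the members covered 49.0 kb in Saos-2, 4.0 kb in the H1 knockdown, 24.5 kb in H1 control and 15.4 kb in IMR90.

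The deposited files carry a score for each region, used here only as a rank within its own list. Above a percentile rank of 80 were 34 of 146 Saos-2 regions in the intervals (23.3%), against 21.0% in the rest of the 3 chromosomes, and 18 of 119 H1 control regions (15.1%), against 18.8%. Of the 106 IMR90 regions only 8 (7.55%) ranked so high, against 22.0% in the rest. In the chromosome 8 interval 22 of 69 Saos-2 regions did (31.9%, against 18.8% in the rest). The median percentile ranks over the 3 intervals were alike among the lists, at 43.6 in Saos-2, 40.3 in H1 control and 43.7 in IMR90. Each was lower than in the rest of the 3 chromosomes, where they were 51.7, 49.4 and 52.8. In the chromosome 8 interval alone the medians were less alike, at 47.4 in Saos-2, 56.7 in H1 control and 36.1 in IMR90. The rest of that chromosome had 47.6, 44.6 and 56.5.

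Few member regions were found in another cell line. Of the 146 Saos-2 regions, 30 (20.5%) overlapped an H1 control region by at least 1 bp, against 180 of 656 (27.4%) in the rest of the 3 chromosomes and 26.0% of the whole list. The difference of -6.89 percentage points had a confidence interval from -13.6 to 1.08. With IMR90, 17 Saos-2 regions (11.6%) overlapped, against 161 (24.5%) in the rest and 23.5% of the whole list, a difference of -12.9 points (-18.4 to -5.94). Of these differences, that for IMR90 had a confidence interval wholly below 0 in this count. The difference for H1 control was -7.11 points (-12.7 to -0.0694) with at least 50% of the region covered. It was -8.95 points (-16.2 to -0.651) with midpoints within 1 kb. Its confidence interval held 0 in the upper 50% by score and with regions within 10 kb merged.

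The other lines also had lower shares inside. Of the 119 H1 control regions, 31 (26.1%) overlapped Saos-2, against 33.4% in the rest and 34.0% of the whole list, a difference of -7.34 points (-15.4 to 2.00). Only 9 H1 control regions (7.56%) overlapped IMR90, against 20.1% in the rest and 20.5% of the whole list, a difference of -12.5 points (-17.5 to -5.59). Of the 106 IMR90 regions, 20 (18.9%) overlapped Saos-2, against 26.4% in the rest and 26.8% of the whole list, with a difference of -7.51 points (-14.8 to 1.58). The overlap of IMR90 with H1 control was 9 regions (8.49%), against 17.9% in the rest and 18.1% of the whole list, a difference of -9.36 points (-14.4 to -1.95). All 3 lists thus shared fewer regions inside the intervals than outside, and the gap passed counting error for Saos-2 and H1 control regions set against IMR90. For IMR90 regions set against H1 control it did so only in the count given: under the 4 other ways of counting the difference was between -14.2 and -6.99 points, with upper bounds from 0.122 to 0.793.

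The intervals differed in this. In the chromosome 8 interval 16 of 39 H1 control regions (41.0%) overlapped Saos-2, against 29.9% in the rest, with a difference of 11.1 points (-4.46 to 27.9). In the chromosome 6 interval 11 of 61 did (18%), against 33.3% in the rest, with a difference of -15.3 points (-25.6 to -2.25). Of the Saos-2 regions in the chromosome 8 interval, 8 of 69 (11.6%) overlapped IMR90, against 28.0% in the rest, a difference of -16.4 points (-25.2 to -5.02). For Saos-2 in IMR90 the difference was -1.89 points (-9.95 to 10.4) on chromosome 6 and -20.6 points (-30.3 to -2.26) on chromosome 17. For H1 control in IMR90 each interval alone had a confidence interval that held 0. Those differences were -7.58 (-13.9 to 1.86) on chromosome 6, -10.0 (-19.8 to 4.92) on chromosome 8 and -19.9 (-27.8 to 0.319) on chromosome 17.

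**Figure D5:**
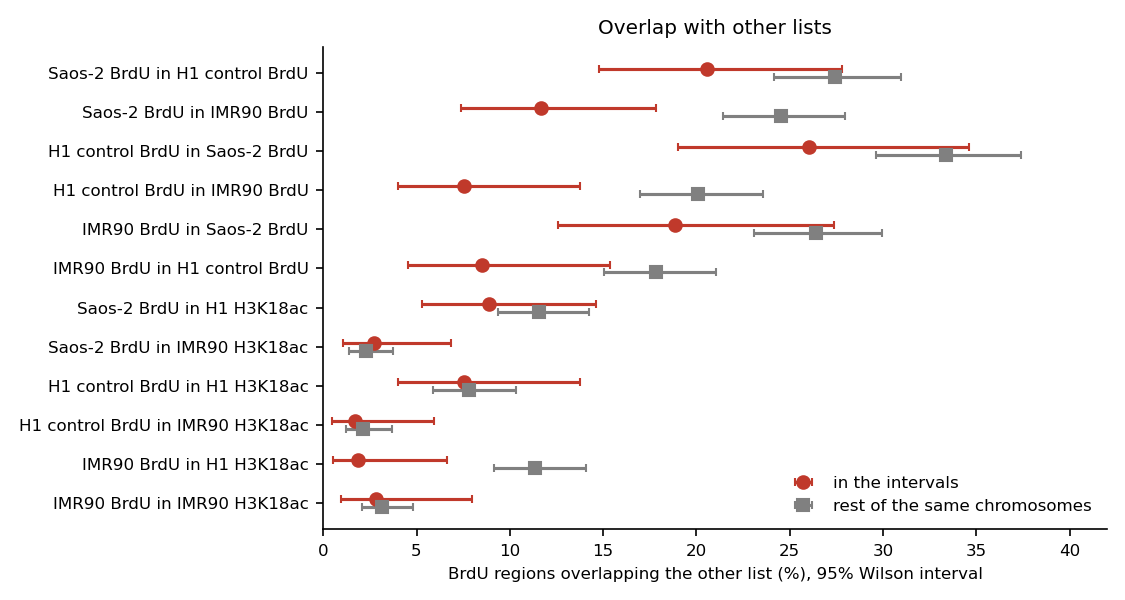
Percent of BrdU regions in the intervals (red circles) and in the rest of the same chromosomes (grey squares) that overlap another list by at least 1 bp, with 95% Wilson intervals. Among Saos-2, H1 control and IMR90, the overlaps between BrdU lists are lower in the intervals in all 6 rows, for example 11.6% against 24.5% for Saos-2 in IMR90.

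Merging overlapping regions of the Saos-2, H1 control and IMR90 lists gave 318 BrdU loci in the intervals. The H1 knockdown list was left out, so a locus of a single line here may still overlap a knockdown region. Of these, 109 had a Saos-2 region alone (34.3%, against 28.3% of loci in the rest), 86 an H1 control region alone (27.0%, against 24.4%) and 84 an IMR90 region alone (26.4%, against 30.4%). Saos-2 and H1 control shared 20, Saos-2 and IMR90 7, and H1 control and IMR90 2. All 3 lines had 10 (3.14%, against 7.05% in the rest). In the chromosome 8 interval 50 of 114 loci (43.9%) had a Saos-2 region alone, against 26.1% in the rest of that chromosome, and 11 were shared by Saos-2 and H1 control. In the chromosome 6 interval 38 of 145 loci had Saos-2 alone (26.2%, against 35.0% in the rest), 50 H1 control alone (34.5%, against 28.0%) and 44 IMR90 alone (30.3%, against 20.6%). In the chromosome 17 interval 21 of 59 loci had Saos-2 alone (35.6%, against 25.0%), 15 H1 control alone (25.4%, against 19.1%) and 18 IMR90 alone (30.5%, against 38.4%). Regions found in a single line were of low rank: the median percentile rank of the Saos-2 members found alone was 37.0 (34.8 in the rest of the chromosomes), and that of the 10 members found in all 3 lines was 92.3 (83.5 in the rest).

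The 10 loci present in all 3 lines were spread over the intervals, with 3 on chromosome 6, 5 on chromosome 8 and 2 on chromosome 17. The highest-ranked was chr6:34038601-34041300, at 2700 bp the longest Saos-2 member. It ranked 15 of 6272 in Saos-2. A knockdown region of 100 bp lay in it at chr6:34041101-34041200, an H1 control region at chr6:34039101-34041000 ranked 9 of 5086, and the higher of a pair of short IMR90 regions ranked 1119 of 5743. The other chromosome 6 loci were chr6:43261601-43262600, at rank 320 in Saos-2, 197 in H1 control and 475 in IMR90, and chr6:41161501-41161900, at rank 4974 in Saos-2, 932 in H1 control and 694 in IMR90.

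On chromosome 8 the shared loci were chr8:126626301-126626900, chr8:133199901-133200200, chr8:134416601-134417300, chr8:140708901-140709700 and chr8:140884101-140884900. The third ranked 144 in Saos-2, 36 of 1755 in the H1 knockdown, 294 in H1 control and 1889 in IMR90. On chromosome 17 they were chr17:21139101-21139700 and chr17:21310401-21311200, both in the tile next to the centromere. The first ranked 824 in Saos-2, 454 in H1 control and 622 in IMR90, and it was the one locus of the 10 that overlapped H1 H3K18ac, at chr17:21139201-21139400.

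The 3 highest-ranked Saos-2 regions of the chromosome 8 interval were also its 3 highest-ranked H1 control regions, and IMR90 had none of them. The first, chr8:139816901-139818700, spanned 1800 bp and ranked 13 in Saos-2, and the H1 control region started at the same base, spanned 1600 bp and ranked 22. The nearest IMR90 region was 891 kb away. The other pair were chr8:134206401-134207500, at rank 34 in Saos-2 and 103 in H1 control, and chr8:133904901-133905800, at rank 54 in Saos-2 and 142 in H1 control. Each of these also overlapped an H1 H3K18ac region, at chr8:134206601-134206800 and chr8:133905601-133905900.

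The highest-ranked IMR90 regions of that interval stood far lower in their list. They were chr8:126626501-126626900 at rank 543, which Saos-2 had at rank 492 and H1 control at 990, chr8:135602701-135603000 at rank 741, shared with H1 control, and chr8:140816301-140816600 at rank 1075, shared with Saos-2.

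On chromosome 6 the third Saos-2 region by score, chr6:44149201-44149900 at rank 336, overlapped an H1 control region at chr6:44149201-44149400, at rank 1056, and an H1 H3K18ac region, and no IMR90 region closer than 4.80 kb. The third H1 control region, chr6:41421601-41422400 at rank 207, overlapped Saos-2 at rank 865 and a knockdown region at chr6:41422001-41422100. On chromosome 17 the first Saos-2 region by score, chr17:15368301-15369000 at rank 389, was found in Saos-2 alone. The H1 control region chr17:17363401-17363600 at rank 807 had the same borders in Saos-2, at rank 2465, and overlapped H1 H3K18ac. A further H1 control region, chr17:17566201-17566600 at rank 1138, overlapped H1 H3K18ac and no BrdU region of another line. The IMR90 regions chr17:16311001-16311400 at rank 1282 and chr17:17471301-17471600 at rank 1348 overlapped no region of any other list.

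The list of the EP300 and CREBBP knockdown was shorter than that of its control by about the same factor inside the intervals and outside them. The knockdown list had 36 regions in the intervals and 173 in the rest, and the control list 119 and 563, an in-over-rest ratio of 0.985 (0.653 to 1.48). Of the 36 knockdown regions, 2 overlapped the control list (5.56%), against 19 of 173 in the rest (11.0%) and 9.06% of the whole knockdown list. Of the 119 control regions, the same 2 places made 1.68%, against 3.37% in the rest and 3.07% of the whole control list. Of the 36 knockdown regions, 7 overlapped Saos-2 (19.4%), against 13.9% in the rest and 13.0% of the whole list. The depth of these libraries is unknown, so fewer synthesis sites and fewer regions past the threshold cannot be told apart.

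H3K18ac regions were placed differently in H1 and IMR90. In the 3 intervals there were 1249 H1 regions, 14.3% (13.6% to 15.0%) of those on the 3 chromosomes, and 2166 IMR90 regions, 17.4% (16.8% to 18.1%). The chromosome 8 interval held 296 H1 regions, 11.7% (10.5% to 13.1%) of the chromosome, and 938 IMR90 regions, 22.6% (21.4% to 23.9%), an in-over-rest ratio of H1 over IMR90 of 0.454 (0.394 to 0.523). Per Mb this was 12.9 H1 regions inside and 18.9 in the rest, and 40.8 IMR90 regions inside and 27.2 in the rest. On chromosome 6 the ratio was 1.40 (1.25 to 1.57), with 655 H1 and 824 IMR90 regions, and on chromosome 17 it was 0.723 (0.617 to 0.847), with 298 H1 and 404 IMR90 regions.

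The densest H1 tile of the mark in the chromosome 8 interval was that from 128 to 129 Mb, with 35 H1 and 80 IMR90 regions. The densest IMR90 tile was that from 119 to 120 Mb, with 10 H1 and 172 IMR90 regions. The widest H1 regions of the intervals were chr6:35452001-35454600, chr8:127568201-127570600 and chr17:16118101-16120000, and the first and last of these overlapped IMR90 H3K18ac. The widest IMR90 region of the chromosome 8 interval, chr8:119919401-119925100, of 5700 bp, lay in its densest tile, which held 1 BrdU region among the 4 lists. The widest IMR90 region of the chromosome 6 interval was chr6:52401201-52411500, of 10300 bp, and that of chromosome 17 was chr17:16321401-16324500, of 3100 bp. None of these 3 IMR90 regions overlapped H1 H3K18ac or a BrdU region.

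Shared H3K18ac regions of the chromosome 8 interval made a larger part of the H1 list and a smaller part of the IMR90 list than in the rest of the chromosome. Of its 296 H1 regions 62 (20.9%) overlapped IMR90, against 15.5% in the rest, a difference of 5.45 points (0.920 to 10.6). Of its 938 IMR90 regions 56 (5.97%) overlapped H1, against 10.8% in the rest of the chromosome, a difference of -4.86 points (-6.61 to -2.87). In the chromosome 6 interval the IMR90 share was 17.1%, against 12.7% in the rest, and in the chromosome 17 interval 15.8%, against 25.0%. Over the 3 intervals 264 of 1249 H1 regions (21.1%) overlapped IMR90, with 19.0% in the whole list, and 261 of 2166 IMR90 regions (12.0%) overlapped H1, with 14.5% in the whole list.

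Most BrdU regions lay off H3K18ac, both in the intervals and in the rest of the 3 chromosomes. In the rest, H1 H3K18ac covered 1822 kb and IMR90 H3K18ac 4811 kb of the 326 Mb of 500 kb bins that held a region. The overlap from placement alone was not computed, so these shares do not tell rare from frequent overlap. Of the Saos-2 members 13 of 146 (8.90%) overlapped H1 H3K18ac, against 11.6% in the rest and 12.6% of the whole list. The difference from the rest was -2.68 points (-7.19 to 3.47). Of the H1 control members 9 of 119 overlapped H1 H3K18ac (7.56%), against 7.82% in the rest and 8.75% of the whole list. Here the difference was -0.252 points (-4.59 to 6.23). The IMR90 members did so least, at 2 of 106 (1.89%), against 11.4% in the rest and 9.49% of the whole list. This difference was -9.49 points (-12.5 to -4.25). It was -5.85 (-8.57 to -0.777) with at least 50% of the region covered and -10.3 (-17.3 to -1.43) with midpoints within 1 kb. In the upper 50% of each list by score it was -8.33 (-13.5 to 2.73), and that confidence interval held 0. In the chromosome 8 interval 0 of 34 IMR90 regions overlapped H1 H3K18ac, against 31 of 197 (15.7%) in the rest. A count of 0 of 34 allows a share of up to 8.82% by the limit of 3 counts (upper Wilson bound 10.2%). The H1 H3K18ac list was itself sparse in that interval, as given above, and the part of this in the low overlap was not tested.

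With IMR90 H3K18ac the overlaps were 4 of 146 for Saos-2 (whole list 2.42%), 0 of 36 for the H1 knockdown (2.05%), 2 of 119 for H1 control (2.36%) and 3 of 106 for IMR90 (2.44%). The knockdown list had 1 of 36 regions on H1 H3K18ac (whole list 1.82%). At these numbers no difference from the rest of the chromosomes could be detected in the IMR90 H3K18ac overlaps.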

How the data were processed

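The data are 6 lists of regions, 1 for each BrdU-Seq or H3K18ac library, with the genome build hg19 and Bowtie 0.12.7 per the submitters' processing notes. For the region caller, its threshold, read depth and any use of inputs, the method was not given in the sources used here. Regions lie on a grid of 100 bp windows. The authors deposited a score with each region, of unstated meaning, which served only to rank regions within a list.

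The members and lists of comparisons were chosen with earlier results of these data known. Shares have 95% Wilson intervals, ratios Woolf intervals and differences of shares Newcombe intervals. Regions per Mb use 500 kb bins that hold a region of any list. Tiles needed at least 10 regions inside and in the rest of each list compared. Regions were merged into 1 where they lay within 10 kb for one alternative, and 100 kb for another. The regions named are the 3 of highest score of the Saos-2, H1 control and IMR90 lists in each interval, the knockdown regions overlapping H1 control, the loci of all 3 lines (added after their values were seen) and the widest H3K18ac region of each interval. Since every group had a single library, groups were not tested against each other. The overlap and ratio code was tested on simulated lists. A planned count at genes was not run, and no sequence is printed, because no hg19 genome or annotation was used here. Python 3.11.15, numpy 2.4.6, pandas 2.3.3, scipy 1.17.1 and matplotlib 3.10.9 were used.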

Additional observations from a re-analysis of the deposited data

How the results depend on the processing

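No paired analysis was possible because each group had 1 library and the labels give no replicate numbers. The chromosome 8 ratio of Saos-2 over H1 control was 1.11 against the rest of the same arm and 4.01 against the other arm. Over IMR90 the chromosome 8 ratio was 3.61 against the other arm and 3.84 in covered base pairs, and the chromosome 6 ratio was 0.947 against all other autosomes. For the 3 intervals together, the ratio over H1 control was 1.42 without the chromosome 6 interval and 0.776 without the chromosome 8 interval. The ratio over IMR90 was 2.10 in covered base pairs, 1.86 for regions of 200 bp and longer and 2.04 without the chromosome 6 interval. Without the chromosome 8 interval it was 0.992, just below 1, with a confidence interval from 0.701 to 1.40 that held 1. With regions in the upper 50% by score, the overlap share in the intervals minus that in the rest was -22.4 points for Saos-2 in IMR90, -22.6 for H1 control in IMR90 and 6.36 for H1 control in H1 H3K18ac. The share of IMR90 H3K18ac in H1 H3K18ac differed by -5.05 points when midpoints within 1 kb were counted. The causes were not tested.

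With the reported value included, 17 ways of counting were compared for each interval, and 16 of them had a confidence interval. On chromosome 8 this lay above 1 in 12 of these over H1 control and in 15 over IMR90. On chromosome 6 it lay below 1 in 4 over H1 control and in 10 over IMR90. On chromosome 17 it lay above 1 in 0 over H1 control and in 3 over IMR90, with ratios from 0.821 to 1.44 and from 0.880 to 2.54. All these ways reuse the same single libraries, so the counts do not measure independent support. Counting any overlap with an interval gave the same numbers as the midpoint, and the tiles left out were those with the lowest and highest ratio. The other arm, the lower 50% by score, merging within 100 kb, regions of 1 line alone, single tiles left out, the Mantel-Haenszel combination and the autosomal tiles were chosen after seeing the data. Depth is unknown, so regions close to the authors' threshold may be missing from any list.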
